A study of Mus musculus with 2 samples.

Results

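Haem, iron and antioxidant genes were followed in immune cells of mouse tumours, as a set of 10: Hmox1, Blvrb, Fth1, Ftl1, Slc40a1, Tfrc, Slc11a1, Gclm, Slc7a11 and Txnrd1. They were found by symbol among the 27998 genes of the deposited matrices, and each symbol named 1 gene in both libraries. The cells were CD45+ leukocytes sorted from subcutaneous tumours of C57BL/6 mice that had each received 50000 MC38-GFP cells, a colon adenocarcinoma line with green fluorescent protein. All animals were given an antibody against the T cell checkpoint receptor PD-1 at a sub-optimal dose of 100 ug on days 12, 15, 18 and 22. The labels assigned 1 library to a responder and 1 to a non-responder, and gave neither ages nor the number of mice behind a library. There was no untreated library, so every level below was measured under the antibody. With 1 library per group, no difference has a replicate check, each comparison is between these 2 libraries rather than the response groups, and no test was made.

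Haem released from engulfed cells is opened by haem oxygenase 1, the product of Hmox1, which frees iron, carbon monoxide and biliverdin. Macrophages are the main cells that recycle iron in this way: they store it in ferritin or export it through ferroportin. Hmox1, the ferritin genes and the glutathione and thioredoxin genes are textbook targets of the oxidant-sensing factor NRF2 (gene Nfe2l2), while iron regulatory proteins bind hairpins, the iron-responsive elements, in the RNAs of ferritin, ferroportin and the transferrin receptor.

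These hairpins are shown first because they tie 4 of the 10 genes to one control at the RNA level, which a count of RNA molecules does not see for the ferritins. A bulged C, 5 stem bases and the loop CAGTGN, with the 5 stem bases paired beyond the loop, were searched on the transcript strand of the GENCODE M21 transcripts (GRCm38). The 5′ UTRs of Fth1, Ftl1 and Slc40a1 held 1 site each, and the 3′ UTR of Tfrc held 4. Capitals mark the bulged C and the loop.
Fth1, chr19:9982732-9982760, + strand: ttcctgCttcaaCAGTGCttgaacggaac
Ftl1, chr7:45459779-45459807, - strand: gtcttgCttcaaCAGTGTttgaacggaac
Slc40a1, chr1:45925465-45925493, - strand: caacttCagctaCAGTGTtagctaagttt
Tfrc, chr16:32631219-32631247, + strand: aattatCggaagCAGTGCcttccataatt
Tfrc, chr16:32631598-32631626, + strand: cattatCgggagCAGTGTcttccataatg
Tfrc, chr16:32631663-32631691, + strand: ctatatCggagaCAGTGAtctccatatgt
Tfrc, chr16:32631710-32631738, + strand: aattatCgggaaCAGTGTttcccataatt
Such a site was found in 0.104% of 5′ UTRs and 0.436% of 3′ UTRs of 44985 transcripts. A match describes the sequence only.

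The antioxidant response element, TGACNNNGC on either strand, was searched in the RefSeq promoter windows (GRCm38.p6), which run from 250 bases before to 50 bases after an annotated start. The 10 genes had 13 windows in 8 genes, some genes with several starts, and none for Hmox1 and Slc40a1. Gclm and Txnrd1 held the element, both on the reverse strand and 134 and 92 bases before a start. The Txnrd1 start is an alternative one inside the gene, downstream of its first start. The element is in capitals, with its flanks in lower case.
Gclm, chr3:122245413-122245441: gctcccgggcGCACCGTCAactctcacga
Txnrd1, chr10:82859104-82859132: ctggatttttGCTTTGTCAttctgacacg
The element was thus in 2 of the 13 windows, beside 12.4% of all 32851 windows.

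The filters left 2565 cells of the non-responder and 4376 of the responder library, with a median of 11752 and 10043 UMIs (unique molecular identifiers, 1 per captured RNA molecule). The CD45 gene Ptprc had a UMI in 74.2% and 77.7% of these cells. Clusters were built without the 10 genes and the listed haem, iron and antioxidant genes, so that these did not set them. Macrophage-like clusters held 2353 non-responder and 4107 responder cells, and T cell-like clusters held 60 and 87. Dendritic-like (76 and 10), natural killer (NK) cell-like (20 and 4), mixed T cell and macrophage (32 and 106) and unnamed clusters (24 and 62) made up the rest. The libraries shared 14 cell barcodes. Levels are CPM, a gene's UMIs summed over the cells named, per 1000000 UMIs of the same cells. Being 3′ counts with no gene length in them, they compare cells and not genes. Brackets hold 95% intervals of counting error, which is the only error they cover.

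In macrophage-like cells, Hmox1 had the largest difference of the 9 genes with at least 50 UMIs. Hmox1 (chr8:75093621-75100589) was at 536.7 CPM in the non-responder library (15743 UMIs) and 143.5 CPM in the responder library (6150 UMIs). It was thus 3.74-fold higher in the non-responder library [3.63 to 3.85], and its log2 ratio, responder over non-responder, was -1.90, the 136th lowest of the 10851 genes with at least 50 UMIs in both libraries together. Of the 9 members measured by that minimum, Hmox1 alone passed a 2-fold difference downward, where 4.38% of all measured genes did. None passed it upward, where 3.48% of all genes did. Across the 9 members the median log2 ratio was -0.15, beside -0.09 over all measured genes.

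The member Blvrb did not follow Hmox1 between the libraries. Blvrb (chr7:27447978-27466144) encodes a biliverdin reductase that also acts as a flavin reductase. It was at 260.6 CPM in the non-responder and 327.1 CPM in the responder library, a log2 ratio of 0.33 [0.29 to 0.37] in the opposite direction. The ratio of Hmox1 to Blvrb UMIs was therefore 2.06 in the non-responder class and 0.44 in the responder class. Blvra, the gene of the other biliverdin reductase and not a member, had the direction of Hmox1, with a log2 ratio of -0.24 [-0.31 to -0.18]. A UMI of Hmox1 was present in 79.2% of non-responder and 52.0% of responder cells. When each cell was thinned to 3000 UMIs, so that depth was equal, the shares were 47.8% [45.8 to 49.9] and 24.1% [22.8 to 25.5].

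Both ferritin subunits differed less between the libraries than Hmox1 did. Fth1 (chr19:9980598-9985098), the heavy chain that oxidises iron, was at 24874 CPM in the non-responder and 21540 CPM in the responder library, a log2 ratio of -0.21 [-0.21 to -0.20]. Ftl1 (chr7:45457944-45459884), the light chain that helps iron to be laid down in the shell, was at 17318 and 12098 CPM, a log2 ratio of -0.52 [-0.52 to -0.51]. Both were lower in the responder library, and the ratio of Fth1 to Ftl1 UMIs was 1.44 in the non-responder and 1.78 in the responder class. The value of Ftl1 is uncertain where reads can be shared with its near copy Gm10116 (chr13:74399694-74407346). Counts of that copy equalled 4.16% of the Ftl1 counts in the non-responder class and 3.02% in the responder class.

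The iron transporters differed from each other. Slc11a1 (chr1:74375195-74386062), the NRAMP1 pump that removes metal ions from phagosomes, was at 143.4 CPM in the non-responder and 249.0 CPM in the responder library. Its log2 ratio of 0.80 [0.74 to 0.85] was the highest of the 9 measured members. Tfrc (chr16:32608920-32632794), the receptor that takes up iron-loaded transferrin, was low at 4.26 and 3.97 CPM, and its interval of -0.45 to 0.24 around a log2 ratio of -0.10 included no difference. Slc40a1 (chr1:45908068-45926523), which encodes ferroportin, the iron exporter, was hardly detected: 22 UMIs among 2353 non-responder cells and 3 UMIs among 4107 responder cells. The ratio of these levels, non-responder over responder, was 10.7 [3.22 to 55.9], and Slc40a1 was below the minimum of 50 UMIs for a measured gene.

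Among the antioxidant members Slc7a11, Gclm and Txnrd1, only the cystine transporter gene Slc7a11 differed beyond counting error. Slc7a11 (chr3:49892526-50443614) encodes xCT, which brings in cystine for glutathione synthesis, and was at 81.1 CPM in the non-responder and 50.8 CPM in the responder library, a log2 ratio of -0.68 [-0.76 to -0.59]. Gclm (chr3:122245557-122270732), the modifier subunit of glutamate-cysteine ligase, was at 6.61 and 5.95 CPM, with a log2 ratio of -0.15 [-0.43 to 0.12]. Txnrd1 (chr10:82833951-82897712), the cytosolic thioredoxin reductase, was at 20.9 and 19.1 CPM, with a log2 ratio of -0.13 [-0.28 to 0.03]. For Gclm and Txnrd1, as for Tfrc, a difference was not detectable at this depth.

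Macrophage states were described by 12 clusters, and few of them were filled by both libraries. In the non-responder library, cluster 0 (1153 cells, led by Fcrls, Gpr34, Pf4 and Folr2), cluster 6 (457 cells, led by Mmp12, Pmp22, Hmox1, Mt2, Adm, Hilpda, Gpnmb, Fabp5 and Spp1), cluster 2 (316, led by the division genes Ccnb1 and Mki67), cluster 7 (196, led by Retnla, S100a8, Cxcl3 and Slpi) and cluster 9 (85, led by the interferon-induced Ifit3b and Rsad2) were the largest. In the responder library the largest were cluster 4 (997 cells, led by Ccl8), cluster 8 (771, led by Cox4i2, Mmp13, Aldoc, Mgarp and Arg1), cluster 5 (601, led by the monocyte gene Ly6c2 with Ly6i, Ifitm1 and Plac8), cluster 10 (488, led by Top2a and other division genes), cluster 14 (426, led by Ifit3 and Isg15), and clusters 15 (390, led by Ccnb2 and Gbp2b) and 16 (348, led by Mcm genes). Hmox1 was among the leading genes of cluster 6 although it had been kept out of the clustering.

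Hmox1 ranged over more than a factor of 10 between these states. In the non-responder library it was lowest in clusters 10 and 5 (99.9 and 103.9 CPM), followed by clusters 9, 2 and 0 (221.9, 235.4 and 237.3 CPM). Cluster 8 (473.3), cluster 7 (706.5) and cluster 6 (1849 CPM) followed. Within each of the first 2 of these steps the intervals overlapped, so clusters 10 and 5 were not ordered, and neither were clusters 9, 2 and 0, while clusters 8, 7 and 6 were apart from each other and from the rest. In the responder library clusters 16, 10, 14, 15, 5 and 4 lay between 71.3 and 98.7 CPM, with each overlapping its neighbour in that order except for 10 and 14. Cluster 8 (282.6), cluster 7 (646.5) and cluster 6 (2962 CPM) again stood above them. The place of cluster 7 above cluster 8 rested on 1 responder cell, which held 63.1% of the Hmox1 UMIs of cluster 7. Without the cell with the most Hmox1, cluster 7 was at 243.4 CPM and cluster 8 at 262.0 CPM.

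**Figure D1:**
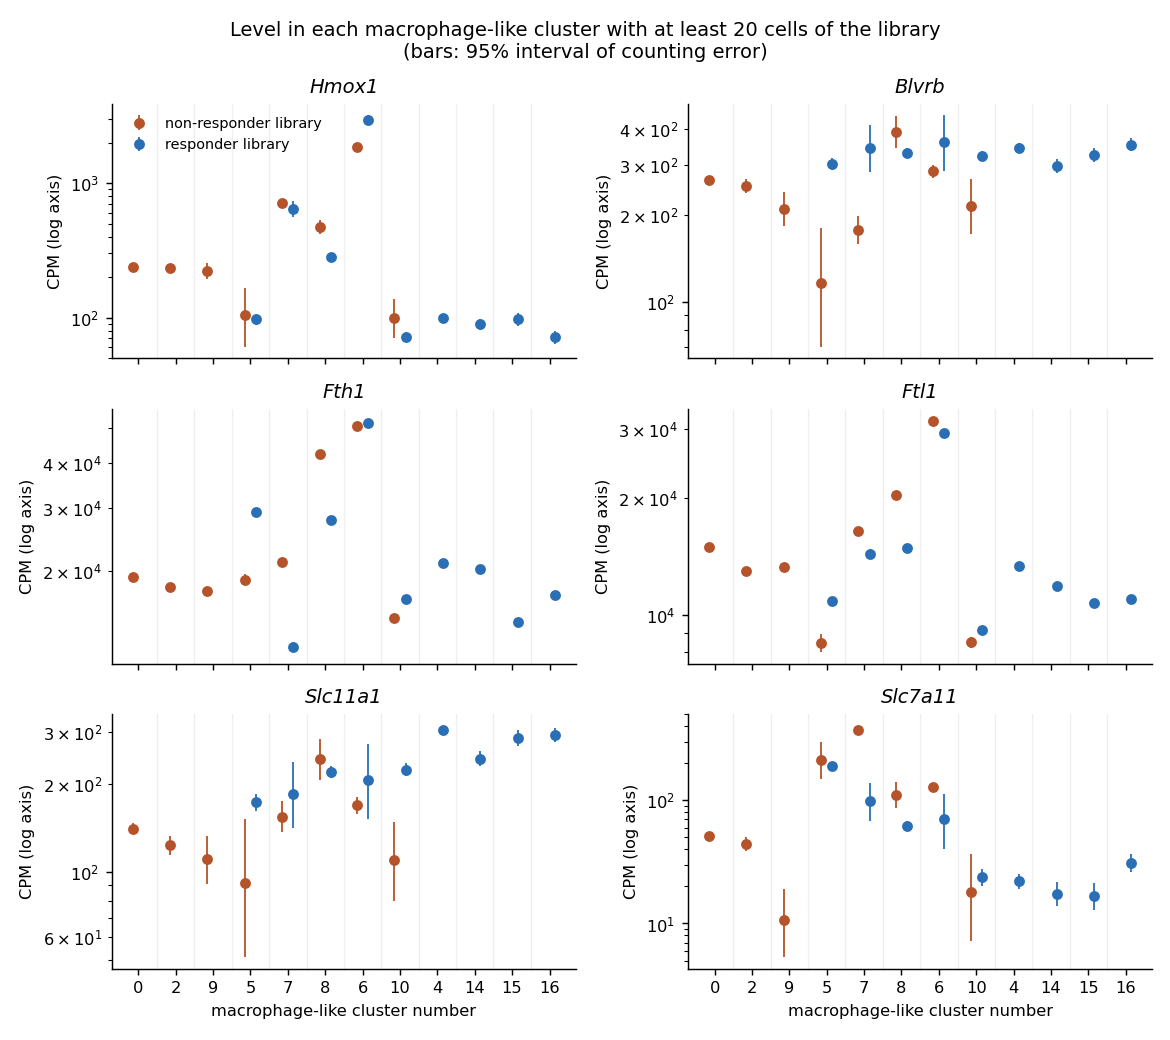
Levels of Hmox1, Blvrb, Fth1, Ftl1, Slc11a1 and Slc7a11 in each macrophage-like cluster with at least 20 cells of the library, as CPM on a log axis against the cluster number, with 95% intervals of counting error as bars (orange, non-responder library; blue, responder library). Hmox1, Fth1 and Ftl1 were highest in cluster 6 in both libraries, while Slc7a11 was highest in cluster 7 of the non-responder (375.4 CPM) and cluster 5 of the responder library (189.3 CPM).

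Few clusters gave most of the Hmox1 UMIs of a library. Since most clusters were filled mainly by 1 library, the makeup of the class and the library cannot be told apart here. In the non-responder library, cluster 6 was 19.4% of the macrophage-like class and gave 58.3% of its Hmox1 UMIs. The same cluster was 0.609% of the responder class (25 cells) and gave 11% of its Hmox1 UMIs. Cluster 8, 18.8% of the responder cells, gave 36.1% there. Without cluster 6, Hmox1 was at 269.3 CPM in the non-responder and 128.4 CPM in the responder library, so the log2 ratio moved from -1.90 to -1.07. It was still the only member past 2-fold there, where 4.22% of measured genes were at least 2-fold lower and 3.37% at least 2-fold higher.

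**Figure D2:**
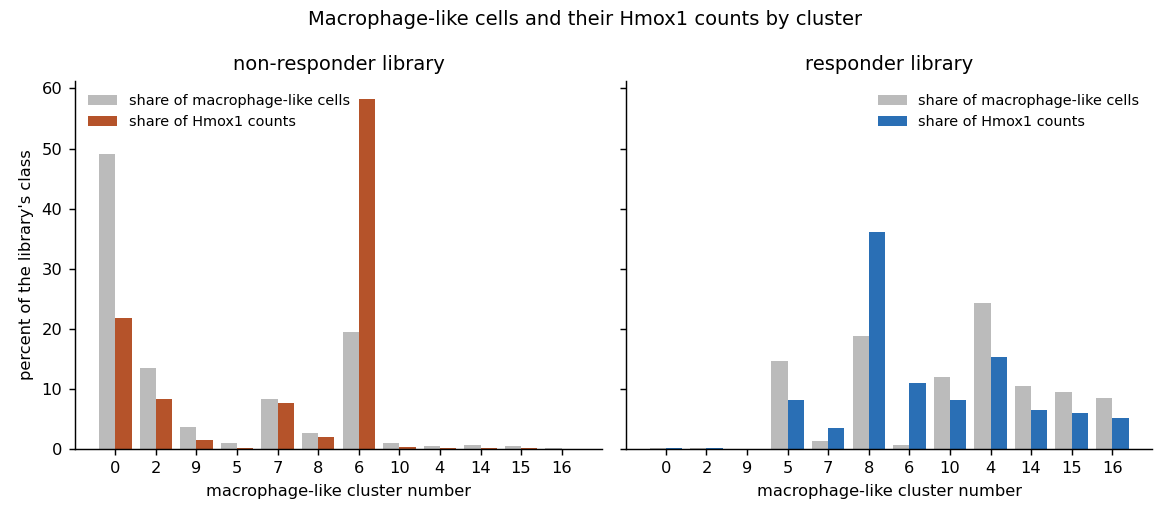
Share of macrophage-like cells (grey) and share of the Hmox1 counts (coloured) that each cluster holds, in percent of the library's macrophage-like class, for the non-responder (left) and responder library (right). Cluster 6 holds 19.4% of the non-responder cells and 58.3% of the Hmox1 counts, and cluster 8 holds 18.8% and 36.1% in the responder library.

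Both ferritin genes were highest in the cluster with the most Hmox1. Fth1 was at 50643 CPM in cluster 6 of the non-responder library and at 51501 CPM in the 25 cells of that cluster in the responder library. Elsewhere it lay between 14828 and 42156 CPM in the non-responder and between 12266 and 29245 CPM in the responder library. Ftl1 was at 31486 and 29305 CPM in cluster 6, and between 8456 and 20285 and between 9147 and 14830 CPM elsewhere. The 2 chains were not in a fixed proportion: the ratio of Fth1 to Ftl1 UMIs ran from 1.29 in clusters 0 and 7 to 2.23 in cluster 5 of the non-responder library. Among responder clusters it ran from 0.86 in cluster 7 to 2.69 in cluster 5. In cluster 5 of the non-responder library 1 of the 22 cells held 19.1% of the Fth1 UMIs.

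Slc7a11 had another peak. In the non-responder library it was at 375.4 CPM in cluster 7 and 213.8 CPM in the 22 cells of cluster 5, above the 127.5 CPM of cluster 6, and it was at 10.7 CPM in cluster 9. The cluster 5 value rested on few cells, as 1 of the 22 held 48.6% of its Slc7a11 UMIs. Responder cells of cluster 5 were at 189.3 CPM and gave 44.7% of all Slc7a11 UMIs, while clusters 15, 14, 4 and 10 were between 16.8 and 23.7 CPM. Slc7a11 was therefore high in the clusters led by Retnla and by Ly6c2, of which cluster 7 was also high in Hmox1 and cluster 5 was not.

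Blvrb and Slc11a1 varied less between clusters than Slc7a11 did. Blvrb lay between 116.1 CPM (cluster 5) and 389.9 CPM (cluster 8) in the non-responder library and between 296.6 and 358.8 CPM in the responder library. Slc11a1 lay between 91.6 and 242.1 CPM in the non-responder library, and between 172.9 CPM in cluster 5 and 304.1 CPM in cluster 4 in the responder library. Gclm had its highest value in cluster 6 in both libraries, at 11.3 CPM [8.52 to 14.6] (56 UMIs) and 26.3 CPM [9.63 to 57.1] (6 UMIs). These intervals overlapped those of cluster 7, at 9.48 CPM [5.42 to 15.4] and 8.94 CPM [1.84 to 26.1], so clusters 6 and 7 were not ordered. Tfrc was at most 7.01 CPM in any macrophage-like cluster, that of cluster 16, which was led by genes of the DNA replication licensing complex. Of the 22 non-responder UMIs of Slc40a1, 7 were in cluster 0, 6 in cluster 6 and 6 in cluster 7, with at most 2 in any cell. Of the 6 in cluster 7, 5 were in 12 cells that each held 20 or more UMIs of neutrophil markers.

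Inside the 5 clusters with at least 20 cells of each library, the contrast between the libraries was not that of the whole class. In cluster 8 (61 non-responder and 771 responder cells) Hmox1 was at 473.3 CPM in the non-responder and 282.6 CPM in the responder library, a log2 ratio of -0.74 [-0.92 to -0.57]. In cluster 6 it was the other way round, 1849 CPM against 2962 CPM, a log2 ratio of 0.68 [0.56 to 0.79]. In clusters 5, 7 and 10 the intervals included no difference, around log2 ratios of -0.10, -0.13 and -0.48. The unweighted mean of the 5 log2 ratios was -0.16, over clusters that do not include cluster 0, which held 49.0% of the non-responder class. Single cells weighed on some of these values: 1 of the 25 responder cells in cluster 6 held 25.7% of their Hmox1 UMIs, and 1 of the 50 in cluster 7 held 63.1%. Without the cell with the most Hmox1 in each library, the log2 ratio was 0.37 in cluster 6, -1.44 in cluster 7, 0.37 in cluster 5 and -0.76 in cluster 8. Over all cells of a cluster, Hmox1 passed a 2-fold difference in none of the 5. The share of measured genes at least 2-fold lower was 7.77% in cluster 5, 12.4% in cluster 6, 8.16% in cluster 7, 2.44% in cluster 8 and 5.08% in cluster 10. The share at least 2-fold higher was 11.8%, 3.99%, 5.92%, 7.39% and 9.27% in the same order.

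Blvrb, Fth1 and Ftl1 also changed direction between clusters. Blvrb was higher in the responder library in cluster 5 (302.1 against 116.1 CPM, log2 ratio 1.38), cluster 7 (0.94) and cluster 10 (0.58). In cluster 8 it was slightly lower, with a log2 ratio of -0.24 [-0.43 to -0.05]. Fth1 was higher in cluster 5 (0.63) and 10 (0.18) and lower in clusters 8 (-0.61) and 7 (-0.79), and outside cluster 6 as a whole its log2 ratio was 0.12, the reverse of the class value. Ftl1 went from 0.36 in cluster 5 to -0.45 in cluster 8, and outside cluster 6 it was still lower in the responder library, at -0.27. Slc11a1 was higher in clusters 5 (0.92) and 10 (1.02). Its intervals in clusters 6, 7 and 8 included no difference.

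**Figure D3:**
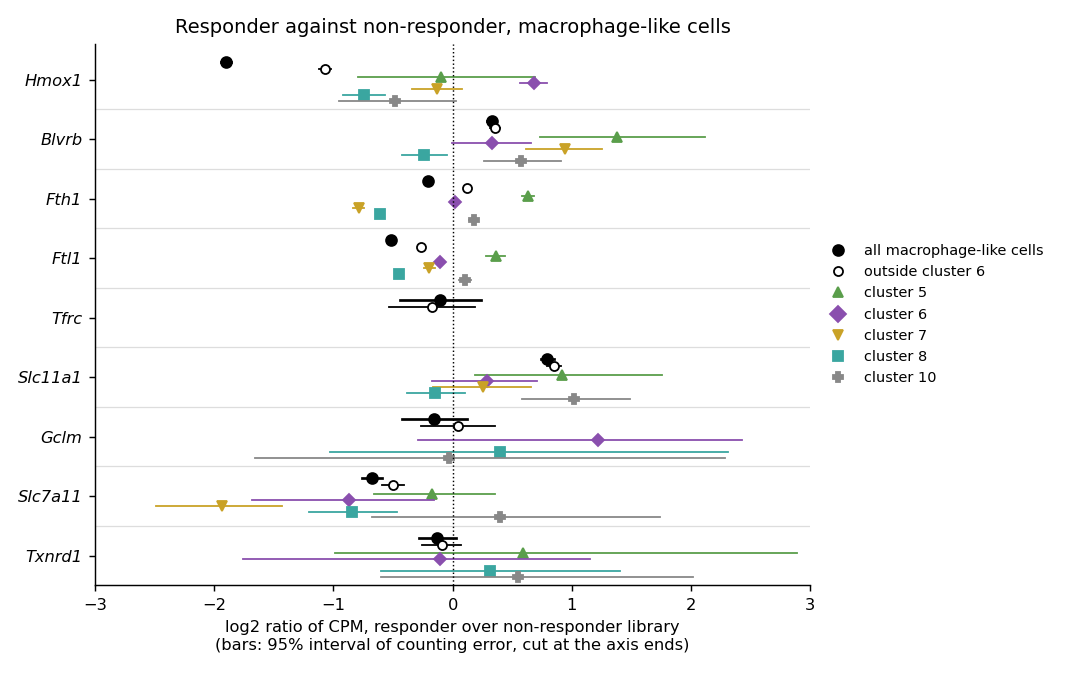
Log2 ratio of CPM, responder over non-responder library, for the 9 members with at least 50 UMIs, over all macrophage-like cells (filled black), outside cluster 6 (open) and in each of the 5 clusters with at least 20 cells of both libraries (coloured), with 95% intervals of counting error. Hmox1 lies at -1.90 over the class and between -0.74 and 0.68 within clusters.

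Slc7a11 was lower in the responder library in cluster 7 (98.3 against 375.4 CPM, log2 ratio -1.93 [-2.48 to -1.43]), cluster 6 (-0.86 [-1.68 to -0.15]) and cluster 8 (-0.85 [-1.21 to -0.47]). In clusters 5 and 10 the interval included no difference, and without the cell with the most Slc7a11 the log2 ratios there were 0.64 and 2.03. Single non-responder cells held 48.6% and 71.4% of the Slc7a11 UMIs in these clusters. Neutrophil markers moved with the value in cluster 7: the 6 markers summed to 1390 CPM in its non-responder cells and to 32.8 CPM in its responder cells, where S100a8, S100a9, Cxcr2, Retnlg and Ly6g were at 0. Most of that signal, 94.9%, was in 12 cells. In cells of cluster 7 without any neutrophil marker UMI, Slc7a11 was at 376.4 CPM in 118 non-responder cells and 115.8 CPM [78.1 to 165.4] in 41 responder cells.

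Other lineages had less of most of these genes. In T cell-like cells Hmox1 was at 41.2 CPM (14 UMIs) in the non-responder and 16.2 CPM (6 UMIs) in the responder library, which is 7.68% [4.20 to 12.9] and 11.3% [4.14 to 24.6] of the macrophage-like level. Of 12 macrophage marker genes, which T cells should lack, the level in T cell-like cells was between 0 and 6.74% of the macrophage-like level in the non-responder and between 4.09% and 13.3% in the responder library. The median of the 12 markers was 2.48% in the non-responder and 5.98% in the responder library. Hmox1, Blvrb and Slc11a1 were within these ranges or had intervals that reached into them. Their levels in T cell-like cells were therefore not told apart from background, which does not show that they are background. In cells thinned to 3000 UMIs, a UMI of Hmox1 was in 11.7% of 60 non-responder and 4.17% of 72 responder T cell-like cells, whose median depth before thinning was 4910 and 3685 UMIs against 11937 and 10101 in macrophage-like cells.

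Ferritin was above that background in T cell-like cells. Fth1 was at 2675 CPM in the non-responder and 3276 CPM in the responder library, 10.8% [10.1 to 11.5] and 15.2% [14.4 to 16.1] of the macrophage-like level. Ftl1 was at 2045 and 2024 CPM, 11.8% and 16.7% of it. In dendritic-like cells of the non-responder library, Fth1 was at 8629, Ftl1 at 5663, Hmox1 at 48.6 and Slc11a1 at 12.1 CPM, with more ferritin RNA than T cell-like and NK cell-like cells of that library. NK cell-like cells of that library had 1663 CPM of Fth1 and no UMI of Hmox1 in 20 cells, which allows a level of up to 11.9 CPM. The background was gauged in T cell-like cells only, so its share in the dendritic-like and NK cell-like levels was not assessed.

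Tfrc had the reverse order. In the non-responder library it was at 26.5 CPM in T cell-like cells (9 UMIs) and 23.8 CPM in NK cell-like cells (6 UMIs), against 4.26 CPM in macrophage-like cells. The T cell-like level was 622% of the macrophage-like one [284 to 1180]. Responder T cell-like cells had only 2 UMIs, 5.40 CPM against 3.97 CPM, or 136% [16.5 to 492] of the macrophage-like level, an interval that included equality.

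Among the members, the ferritins had the highest r with Hmox1 within macrophage-like cells. Cells were thinned to 3000 UMIs and Pearson's r was taken over log-transformed UMIs of single cells, which share the library, the depth and any free RNA of that library. Ftl1 had an r with Hmox1 of 0.50 over 2351 non-responder cells, the highest of 2493 genes ranked, and 0.25 over 4038 responder cells, where its rank was 2. Fth1 had 0.46 and 0.17, at ranks 3 and 10. Slc7a11 had 0.15 and 0.10, Gclm 0.11 and 0.07, and Blvrb, Slc11a1, Txnrd1 and Tfrc between -0.03 and 0.06. Weak values of the sparse genes are no finding. Counting noise lowers r for genes with few UMIs, so r does not rank members of unlike abundance. Both ferritin genes had a UMI in 100% of thinned cells in each library. Slc7a11 had one in 11.2% of non-responder and 10.0% of responder cells, and Gclm in 1.66% of each.

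From cells with no to cells with 4 or more thinned Hmox1 UMIs, most levels also rose, but in another order. In proportion, Slc7a11 rose more than the ferritins in both libraries. Non-responder cells with no thinned Hmox1 UMI (1227 cells) had 19851 CPM of Fth1 and those with 4 or more (264 cells) had 48659 CPM. The responder levels were 21026 CPM in 3064 cells and 42512 CPM in 58 cells. Ftl1 went from 13823 to 32819 CPM and from 11363 to 29172 CPM. Slc7a11 was at 55.4 and 242.4 CPM in these bins of the non-responder library and at 51.8 and 195.4 CPM in those of the responder library. Non-responder Slc7a11 did not rise at each step, with 81.1 CPM at 1 Hmox1 UMI and 74.9 CPM at 2 to 3, though these intervals overlapped. Gclm went from 3.80 CPM (14 UMIs) to 18.9 CPM (15 UMIs) [10.6 to 31.2] and from 5.33 CPM (49 UMIs) to 40.2 CPM (7 UMIs) [16.2 to 82.9]. At 1 Hmox1 UMI it was at 3.17 and 3.58 CPM. These counts are too few to order Gclm against the ferritins. Blvrb was at 247.5 and 309.3 CPM in the non-responder library, and at 315.5 and 528.7 CPM in the responder library, and Slc11a1 moved less, from 136.9 to 180.6 and from 247.1 to 264.4 CPM.

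**Figure D4:**
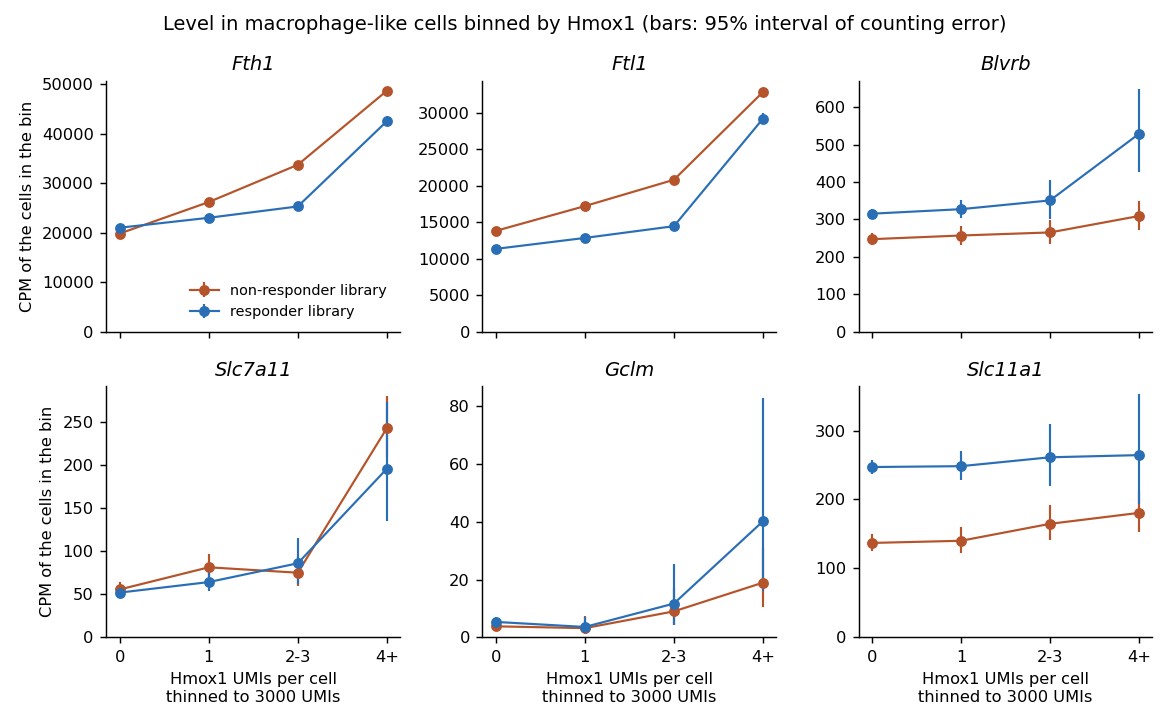
Level of Fth1, Ftl1, Blvrb, Slc7a11, Gclm and Slc11a1, in CPM, in macrophage-like cells with 0, 1, 2 to 3 and 4 or more Hmox1 UMIs after thinning each cell to 3000 UMIs (orange, non-responder; blue, responder library), with 95% intervals of counting error as bars. Fth1 and Ftl1 are higher at every step in both libraries, with Fth1 going from 19851 to 48659 CPM in the non-responder library.

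Cluster 6 held 68.6% of the non-responder cells with 4 or more Hmox1 UMIs and 27.6% of the responder ones. Outside it the ferritin steps were smaller: Fth1 was at 18428 and 33004 CPM in the lowest and highest bin of the non-responder library and at 21024 and 34635 CPM in the responder library. Slc7a11 differed more between these bins outside cluster 6 than in all cells, going from 52.3 to 461.8 CPM (83 cells in the highest bin) and from 51.8 to 230.2 CPM (42 cells). The r of Ftl1 with Hmox1 outside cluster 6 was 0.28 and 0.21, and that of Fth1 was 0.23 and 0.12.

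Inside single clusters the relation was uneven. In cluster 7 of the non-responder library (196 cells) r with Hmox1 was 0.52 for Ftl1, 0.36 for Fth1, 0.33 for Slc7a11, 0.33 for Gclm and 0.18 for Txnrd1. In cluster 8 of the responder library (764 cells) it was 0.34 for Ftl1, 0.18 for Fth1, 0.21 for Slc7a11, 0.26 for Gclm and 0.16 for Txnrd1. In clusters 15 and 16 of the responder library all 5 of these genes were between -0.00 and 0.06. In no other cluster of at least 100 cells was r above 0.07 for Gclm or above 0.11 for Slc7a11. The values of Gclm and Txnrd1 rest on few cells. A thinned UMI of Gclm was in 1.53% of the non-responder cells of cluster 7 and 2.62% of the responder cells of cluster 8. For Txnrd1 these shares were 6.63% and 4.71%. The 12 cells rich in neutrophil markers were also high in Slc7a11 (903 CPM) and Fth1 (50258 CPM), and their part in the r values of cluster 7 was not tested. Over clusters rather than cells, the r of Ftl1 with Hmox1 in log2(CPM + 10) was 0.96 over 8 non-responder clusters and 0.93 over 9 responder clusters, and 0.91 and 0.77 without cluster 6. For Fth1 it was 0.82 and 0.54, and 0.62 and -0.23 without cluster 6, so in the responder library it rested on that cluster. The rank correlation (Spearman rho) there was 0.37 with and 0.10 without cluster 6. Responder cluster 7 had the lowest Fth1, and 1 of its cells held 63.1% of its Hmox1 UMIs, which weighs on the value of -0.23.

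**Figure D5:**
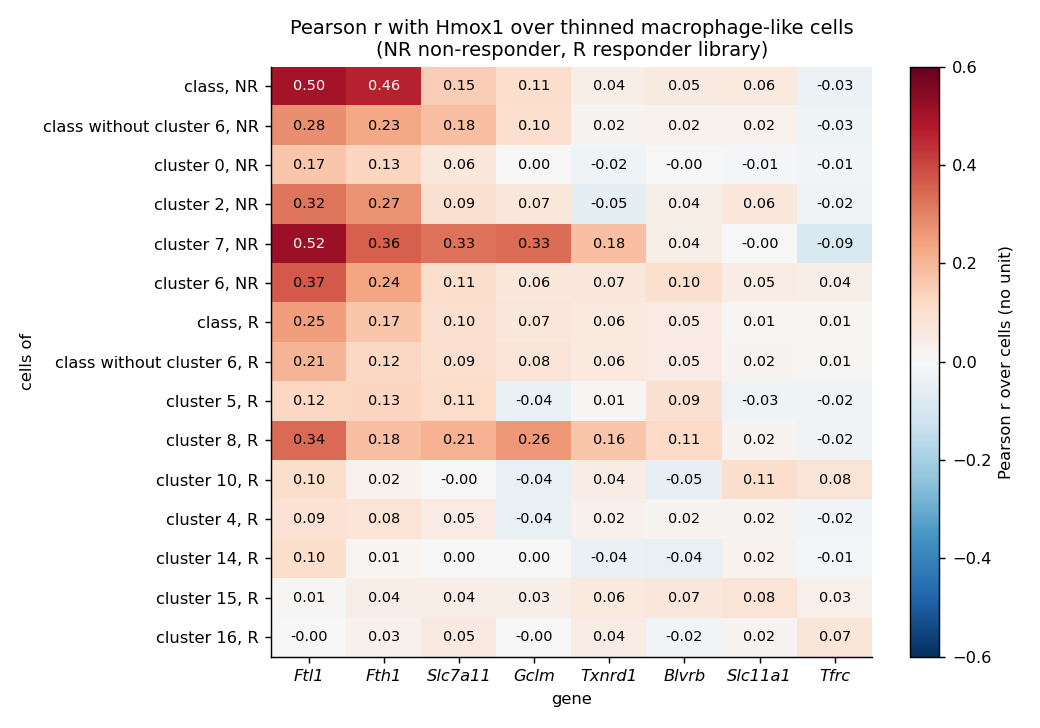
Pearson r of 8 members with Hmox1 over thinned macrophage-like cells of the class, of the class without cluster 6 and of each cluster with at least 100 cells of the library (rows; NR non-responder, R responder library). Colour and number give r, which is highest for Ftl1 in cluster 7 of the non-responder library, at 0.52.

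Outside the 10 genes, those most like Hmox1 in both libraries, by the smaller of the 2 r values, were Mt2 (0.47 in the non-responder and 0.32 in the responder library), Mt1, Lgals3, Ninj1, Prdx1, Clec4d, Arg1, Bnip3, Anxa2 and Aldoa (0.41 and 0.14). Mt1 and Mt2 encode metallothioneins, which bind zinc and copper, Prdx1 a peroxide-reducing peroxiredoxin, and Bnip3 and Aldoa are textbook hypoxia-induced genes. The gene of the factor NRF2 itself, Nfe2l2, had an r of -0.03 and -0.00, and Keap1, which encodes its inhibitor, -0.02 and 0.00. The RNA of these genes does not measure the activity of the NRF2 protein, which was not tested. The haem transporter gene Slc48a1, which encodes the HRG1 protein of phagolysosomes, had 0.11 in each library. Hmox2, the constitutive haem oxygenase, had -0.01 in each.

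Among 19 further haem genes found in the files, 16 were measured in macrophage-like cells, and none passed a 2-fold difference. Their log2 ratios were higher in 4 and lower in 12, with a median of -0.14, beside 4380 higher and 6471 lower among all 10851 measured genes, of which 4.38% were at least 2-fold lower. Slc46a1, a haem and folate carrier, and Lrp1, the receptor for haem bound to haemopexin, were lowest at -0.83 and -0.76, followed by haptoglobin (Hp) at -0.49. Slc48a1 was highest at 0.53 (43.9 CPM in the non-responder and 63.4 CPM in the responder library), then Uros at 0.44 and Abcg2 at 0.23. Hmox2 was at -0.09 (157.7 and 148.4 CPM), Blvra, the other biliverdin reductase, at -0.24, and Bach1, the repressor of Hmox1, at -0.16. The haemoglobin scavenger receptor Cd163 had 15 and 3 UMIs, and Spic, a factor of red pulp macrophages, had 21 in each library, so neither was measured. Globin UMIs moved in the direction of Hmox1: Hbb-bs was at 2.93 CPM in the non-responder and 0.68 CPM in the responder library. Its part in the Hmox1 values was not tested.

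Of 25 further iron genes, 19 were measured, 8 with a higher and 11 with a lower log2 ratio (median -0.07), a split close to that of all measured genes. Transferrin (Trf, 360.9 against 154.3 CPM) and the endosomal iron reductase Steap3 (7.91 against 3.38 CPM) were at least 2-fold lower in the responder library (2 of 19 genes, beside 4.38% of all). Both were at -1.23. The ferritinophagy receptor gene Ncoa4 followed at -0.75 [-1.41 to -0.10], on only 45 non-responder and 39 responder UMIs. The highest were the mitochondrial iron importer Slc25a37 at 0.68, ceruloplasmin (Cp) at 0.41 and the related importer Slc25a28 at 0.38. The iron regulatory protein genes Aco1 and Ireb2 were at -0.37 and -0.64, and the endosomal transporter Slc11a2 at -0.16.

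Of 34 further antioxidant genes, 31 were measured, 11 with a higher and 20 with a lower log2 ratio (median -0.16), also near the split of all measured genes. The extracellular glutathione peroxidase gene Gpx3 was the one past 2-fold (1 of 31 genes, beside 4.38% of all), at -2.33 (17.1 against 3.41 CPM), followed by Gstm1 at -0.84 and glutathione reductase (Gsr) at -0.62. Gclc, which encodes the catalytic partner of Gclm, was at -0.62, and Slc3a2, whose product is the heavy chain that carries xCT, at -0.16. The highest were Mgst1 at 0.84, Txn1 at 0.35 and Prdx5 at 0.31. Nfe2l2 was at 0.20, Keap1 at 0.11, Srxn1 at -0.03, Prdx1 at -0.35 and Gpx4 at -0.33, and Nqo1 had 17 and 13 UMIs. Slc7a11 is also a target of ATF4, the factor of the amino acid stress response. Of 10 ATF4 genes listed, 8 were measured, 7 had a lower log2 ratio (median -0.36), and Asns (-2.04) and Trib3 (-1.49) were past 2-fold. Over all measured genes the median was -0.09, 6471 of 10851 were lower and 4.38% were at least 2-fold lower. The highest were Sesn2, the only one above 0 at 0.04, Slc1a5 at -0.11 and Ddit3 at -0.14, and Psat1 followed Trib3 among the lowest at -0.99. The part of ATF4 in the Slc7a11 values was not tested. TMM scaling adds 0.12 to every log2 ratio here and moves the median of all measured genes to 0.03, so that genes between -0.12 and 0, Tfrc and Hmox2 among them, change sign. The split of higher and lower genes then becomes 3 and 6 for the members, 7 and 9 for haem, 11 and 8 for iron, 14 and 17 for antioxidant and 2 and 6 for ATF4 genes, beside 5815 and 5036 for all measured genes.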

How the data were processed

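Per the labels' protocols, libraries came from the Chromium 3′ v3 kit of 10x Genomics. Per the submitters' processing notes, Cell Ranger 1.1.0 was used with mm10 and GRCm38. For the annotation release and cell calling, nothing is given in the sources used here. Per library, the authors deposited 1 filtered matrix of UMI counts (32032569 and 45866561 UMIs in 2580 and 4425 barcodes), with whole numbers throughout. Barcodes had to hold 500 genes and at most 10% mitochondrial UMIs. Counts were scaled to 10000 per cell and clustered jointly with scanpy 1.11.5 (2000 variable genes, 30 components, 15 neighbours, Leiden resolution 1), without batch correction. T cell and NK cell clusters were clustered again. No doublet caller was run, and clusters with T cell and macrophage markers were kept apart as mixed. Markers were scored as present from 50 CPM and 10% of cells with a UMI, and a cluster was macrophage-like when 75% or more of the macrophage list was present and its leading genes did not point to a dendritic, fibroblast or shallow cluster. Ratios have conditional exact binomial intervals, CPM exact Poisson and shares exact Clopper-Pearson intervals, at 95%. A count of 0 was bounded by 3 counts. Genes were measured at 50 UMIs in the class or cluster, clusters at 20 cells of a library. Ratios, thinning and r were tested on simulated data. Named genes beside the members were, per list, the 3 highest and 3 lowest log2 ratios and fixed partner genes, plus the 10 genes most like Hmox1 with a UMI in at least 10% of thinned cells. Genes outside that rule, such as neutrophil markers, were chosen after their values were seen. The members and lists were chosen with earlier results of these data known. Coordinates are from GENCODE M21 by Ensembl identifier. TMM factors came from edgeR 4.0.16, with no test. The alternatives changed scaling, filters, thinning, clustering and cells left out.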

Additional observations from a re-analysis of the deposited data

Results flagged for a closer look

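For 4 genes the log2 ratio, responder over non-responder, had intervals of counting error on opposite sides of 0 in different macrophage-like clusters. The difference between clusters was not tested, since each cluster holds 1 library per group. Hmox1 was at 0.68 in cluster 6 and -0.74 in cluster 8. Blvrb was at 1.38 in cluster 5, which held 22 non-responder cells, and -0.24 in cluster 8. Fth1 was at 0.63 in cluster 5 and -0.79 in cluster 7. Ftl1 was at 0.36 in cluster 5 and -0.45 in cluster 8. Without the cell with the most counts of the gene in each library, these values became 0.37 and -0.76 for Hmox1, 1.62 and -0.19 for Blvrb, 0.87 and -0.96 for Fth1 and 0.38 and -0.42 for Ftl1. All 4 pairs kept opposite signs.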

How the results depend on the processing

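No paired analysis was possible because each group has 1 library. Hmox1 was the 1 member past 2-fold lower in 14 of the 16 alternatives. The count was 2 when members needed only 1 UMI, which added Slc40a1, and 0 for the mean of the log2 ratios within shared clusters, where Hmox1 was at -0.16. No alternative gave a member past 2-fold higher, and the members' median lay between -0.27 and 0.14. Fth1 changed direction, to 0.12, without cluster 6. This alternative, the one without the cell with most counts, the cluster correlations outside cluster 6 and the other resolutions for cluster levels were chosen after seeing the data. The r of Ftl1 and Fth1 with Hmox1 in the non-responder library fell to 0.28 and 0.23 without cluster 6. Hmox1 in its highest cluster over the other macrophage-like cells was 6.87 in the non-responder and 23.1 in the responder library. At resolution 0.5 these were 7.06 and 30.3, at resolution 2.0 the responder value was 26.2, and with the listed genes kept among the variable genes it was 32.1. As shares of thinned cells the ratios were 2.21 and 4.06. Hmox1 in macrophage-like over T cell-like cells was 13.0 in the non-responder library as CPM and 4.10 as a share of thinned cells. A share cannot exceed 100%, which limits such ratios. Depth limits Slc40a1, Tfrc and Gclm, and shared clusters with 20 to 61 cells of 1 library limit the ratios within clusters.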

Other observations

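The Slc40a1 UMIs of the non-responder library were not spread evenly. A single cell of the mixed cluster L0, with 22646 UMIs in all, held 8 of them, more than any other cell. The same cell had 167 UMIs of Hmox1 (7374 CPM), 2197 of Ftl1 (97015 CPM), 1590 of Fth1 and 59 of C1qa beside 6 of Cd3e, and none of Spic, Cd163 or Tfrc. Its Hmox1 was 79.5% of that of the cluster, so the Hmox1 level of mixed droplets in that library (485 CPM in 32 cells) rests on it.

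In cluster 1, left unnamed for its low depth (median 3138 UMIs) and led by Mmp13, Osgin1, Gadd45b and Prdx1, the 40 responder cells had 40576 CPM of Fth1, 21464 of Ftl1 and 678.7 of Hmox1, of which 1 cell held 41.6%. A UMI of Ptprc was in 10% of them. In unnamed cluster 12, led by Serpinh1, Dcn and Col3a1 and with a UMI of Ptprc in 15.0% and 13.6% of cells, Tfrc was at 18.7 CPM in 20 non-responder and 49.2 CPM in 22 responder cells, and Fth1 was at 3925 and 3043 CPM. There the ratio of Fth1 to Ftl1 UMIs was 0.59 and 0.83, below that of every macrophage-like cluster of the same library.

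As a percentage of the Ftl1 counts, the separately counted copy Gm10116 was nearly the same in every macrophage-like cluster of a library. It was 4.11% to 4.55% in the non-responder and 2.95% to 3.19% in the responder library, and the cause of this difference between libraries was not tested.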
